A study of Rattus norvegicus with 20 samples.

Results

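Polyamine metabolism genes are 8 genes chosen by symbol, namely Odc1, Azin1, Oaz1, Amd1, Srm, Sms, Sat1 and Smox, and each matched 1 of the 34681 rows of the deposited rat kidney table. All 8 passed the filter on low values, which left 15954 rows to test. The study concerns acute kidney injury after trauma, and RNA from frozen rat kidneys was read from both ends in strand-specific mRNA libraries. The 20 libraries fell by their disease label into 6 of RM, 5 of HS, 3 of RM-HS and 6 of Sham, which served as the control. What RM and HS stand for is left unexplained in the labels. The design text gives RM 1 library fewer than the labels do, and every labelled library was used. Strain, sex, age, time after injury and the number of animals behind the libraries are not stated in the sources used here. P-values therefore rest on how these libraries vary, part of which may be technical.

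Levels are DESeq2-normalized read counts and are compared between libraries, never between genes, because gene lengths were not applied. Libraries held 45047179 to 109940948 reads in the table, of which 42.2% to 54.7% lay on 14 mitochondrial rows. Between 214 and 130574 reads lay behind each value of 7 of the genes, and 30 to 156 behind each value of Smox, for which counting error therefore adds to the spread. Markers of the nephron segments were detected in every library, apart from Pvalb, a marker of the distal convoluted tubule, which was at 0 in 15 libraries, and Trpm6, which was not matched. The Sham libraries stood apart from one another in these markers. The summed level of 7 early proximal tubule markers spanned 141000 to 210000 in RM, 124000 to 163000 in HS and 171000 to 245000 in RM-HS, against 133000 in Sham 1, 139000 in Sham 6 and 33700 to 61200 in Sham 2 to 5. That of 5 thick ascending limb markers spanned 90900 to 200000 in RM, 72200 to 125000 in HS and 137000 to 164000 in RM-HS, against 175000 to 295000 in Sham, and that of 5 principal cell markers 10500 to 34300, 12800 to 20100 and 7700 to 17700, against 30500 to 82800 in Sham. All 5 principal cell markers fell in each of the 3 groups, with a median log2 fold change of -1.90 in RM, -1.39 in HS and -1.66 in RM-HS. Of all tested genes, 26.8% fell in RM, 23.2% in HS and 21% in RM-HS, at a limma adjusted p under 0.05. The sum of 5 podocyte markers spanned 8130 to 10700, 7540 to 9490 and 7840 to 8980 in RM, HS and RM-HS, against 1830 to 7980 in Sham. Markers of liver, adrenal and skeletal muscle summed to at most 1930, 66.8 and 160 in any library. In whole tissue, fewer cells of a type and less RNA per cell cannot be told apart. Results against Sham are therefore also given with Sham 1 and Sham 6 as the only controls, a choice that rests on values seen in these data.

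Polyamines are small positively charged molecules, chiefly putrescine, spermidine and spermine, that bind nucleic acids and are needed for translation and growth. Ornithine decarboxylase (Odc1) makes putrescine from ornithine, and S-adenosylmethionine decarboxylase (Amd1) makes the aminopropyl donor with which spermidine synthase (Srm) and spermine synthase (Sms) build the larger polyamines. Antizyme (Oaz1) binds ornithine decarboxylase and delivers it to the proteasome, its translation needs a frameshift that polyamines promote, and antizyme inhibitor (Azin1) sequesters antizyme. In the other direction, spermidine/spermine N1-acetyltransferase (Sat1) marks polyamines for export or oxidation, and spermine oxidase (Smox) turns spermine back into spermidine with release of hydrogen peroxide and an aldehyde. Sat1 is a known responder to ischaemia and reperfusion in the rat kidney. Much of the control of these enzymes lies in translation and protein turnover, which mRNA levels do not show.

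The stretch before the transcription start is shown for 4 of the genes, chosen for the contrast between Sat1 and Srm, which rose in all 3 injured groups, Odc1, which passed in none of them, and Oaz1, which went in different directions. Sequences are those of RefSeq on the GRCr8 build, 250 bases each, and 7 of the 8 genes had an entry. Coordinates are chrX:44007839-44008088 on the + strand for Sat1, chr5:164308752-164309001 on the + strand for Srm, chr6:46058415-46058664 on the + strand for Odc1 and chr7:9536991-9537240 on the - strand for Oaz1. Capitals mark the E-box letters CACGTG, which MYC and MAX bind, in Srm and Oaz1, the TATAA letters in Odc1, and the reverse complement of the TGACG core of the cyclic AMP response element in Sat1. Not every match is in capitals, as Oaz1 also holds TATAA, and Odc1 and Oaz1 also hold TGACG.
Sat1: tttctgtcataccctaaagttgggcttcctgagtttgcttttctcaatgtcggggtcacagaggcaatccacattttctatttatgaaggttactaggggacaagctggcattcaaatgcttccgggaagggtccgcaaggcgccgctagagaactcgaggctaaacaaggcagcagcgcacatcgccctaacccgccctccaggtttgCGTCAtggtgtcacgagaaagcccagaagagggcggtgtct
Srm: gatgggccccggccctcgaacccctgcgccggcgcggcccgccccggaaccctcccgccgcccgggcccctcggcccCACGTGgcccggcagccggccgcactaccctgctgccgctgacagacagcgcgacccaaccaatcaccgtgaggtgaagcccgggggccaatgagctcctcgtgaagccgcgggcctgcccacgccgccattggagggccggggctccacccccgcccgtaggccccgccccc
Odc1: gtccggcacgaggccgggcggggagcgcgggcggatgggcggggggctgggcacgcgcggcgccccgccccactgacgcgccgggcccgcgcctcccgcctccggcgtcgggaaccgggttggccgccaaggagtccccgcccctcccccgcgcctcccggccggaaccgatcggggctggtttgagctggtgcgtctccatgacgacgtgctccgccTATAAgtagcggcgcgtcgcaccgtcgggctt
Oaz1: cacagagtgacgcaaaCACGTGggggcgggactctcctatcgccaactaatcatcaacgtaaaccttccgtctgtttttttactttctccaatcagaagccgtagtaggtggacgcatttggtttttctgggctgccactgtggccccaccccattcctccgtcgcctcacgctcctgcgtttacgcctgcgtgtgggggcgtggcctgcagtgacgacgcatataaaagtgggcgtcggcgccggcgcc

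Of the 7 stretches, CACGTG was found in 2, those of Srm at -173 and Oaz1 at -234, counted from -1 at the last base before the start, and in 5.79% of 27457 rat promoters of the same length. On either strand, TATAA was found in 3 (24.1% of all promoters), TATAAA in 2 (13.1%), TGACG in 5 (19%), TGACGTCA in 0 (1.7%), TGACNNNGC, the core of the antioxidant response element, in 1 (10.2%), and CCAAT in 2 (34.3%). TATAAA overlaps TATAA, and the TGACNNNGC match of Oaz1 at -38 lies on its TGACG match. The Srm and Odc1 stretches were rich in G and C, at 78.4% and 78%, while that of Sat1 had 52.8%, near the median of 52% over all promoters. These matches are letters in a window, and no binding was measured here.

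Across the 3 comparisons with Sham, the acetylating enzyme Sat1 rose most among the 8 genes, by 3.00-fold in RM, 2.44-fold in HS and 4.18-fold in RM-HS. Srm and Azin1 also rose in each of these comparisons, whereas Odc1, Sms and Smox passed in none. In RM 4 of the 8 genes rose (Sat1, Srm, Azin1 and Amd1) and none fell, beside 53% of all 15954 tested genes that passed in RM, 26.2% higher and 26.8% lower. In HS the same 4 genes rose and Oaz1 fell, beside 46.4% of all genes passing, 23.3% higher and 23.2% lower. In RM-HS 4 genes rose (Sat1, Srm, Azin1 and Oaz1), beside 42.3% of all genes passing, 21.3% higher and 21% lower. Calls are by limma on log2(value + 1) at a Benjamini-Hochberg adjusted p under 0.05, with 1 fit over all 20 libraries. The members' shares of 4 or 5 in 8 thus lie near the background. The groups did not overlap for 3 of the 8 genes in RM, 2 in HS and 4 in RM-HS, beside 25.7%, 25.9% and 32.5% of all genes. The median log2 fold change of the 8 genes was 0.23 in RM, 0.18 in HS and 0.38 in RM-HS, against -0.04, -0.03 and -0.03 over all tested genes. The 3 comparisons share the Sham libraries. When Sham 1 and Sham 6 were the only controls, 3 of the 8 genes passed in RM, 3 in HS and 4 in RM-HS. Of all 15954 tested genes, 5250 passed in RM, 4105 in HS and 4347 in RM-HS with those controls. Sat1, Srm and Azin1 passed in all 3 of these comparisons.

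**Figure D1:**
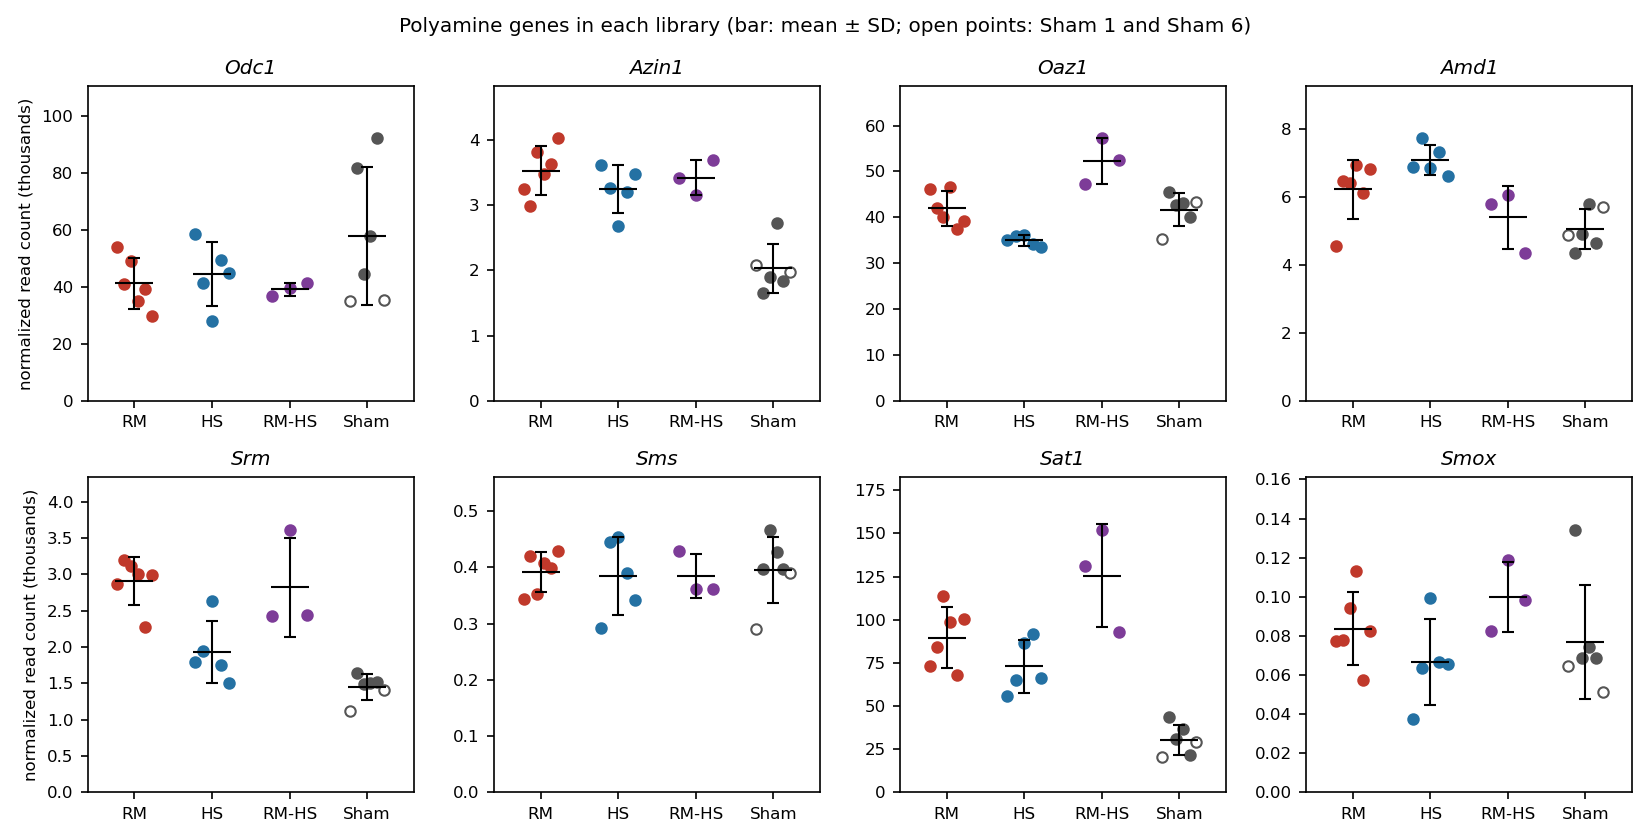
Normalized read counts for each of the 8 genes, 1 point per library, in RM, HS, RM-HS and Sham, with the mean ± SD as a bar. Every RM, HS and RM-HS library lies above every Sham library for Sat1, while the groups overlap for Odc1, Sms and Smox.

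Odc1, the enzyme that commits ornithine to polyamine synthesis (GSRG0025925, rn6 chromosome 6, 42852655 to 42859140), did not pass in any comparison. It spanned 29800 to 54100 over the RM libraries (median 40100), stood at 58800, 41300, 28200, 49500 and 44800 in HS and at 36700, 39600 and 41400 in RM-HS, and spanned 35200 to 92300 over the Sham libraries (median 51200). The groups overlapped throughout, and the widest spread lay within Sham. Its log2 fold change was -0.41 ± 0.23 (SE) in RM, -0.31 ± 0.24 in HS and -0.46 ± 0.28 in RM-HS (limma adjusted p = 0.14, 0.29 and 0.19). In Sham 2, 3, 4 and 5 Odc1 stood at 81800, 44500, 58000 and 92300, but at 35200 and 35600 in Sham 1 and Sham 6. The early proximal tubule sums of Sham 1 and Sham 6, 133000 and 139000, lay within the HS range and below every RM and RM-HS library. Their thick ascending limb sums, 285000 and 262000, lay above every injured library. Against those 2 controls the values had the other sign, 0.20, 0.29 and 0.15, and did not pass (limma adjusted p = 0.53, 0.38 and 0.7). Odc1 did pass in RM under array weights (-0.55, limma adjusted p = 0.0245) and under upper quartile scaling (-0.55, limma adjusted p = 0.0476, or -0.41 relative to that scaling's shift of all genes). The early proximal tubule markers rose in 7 of 7 genes in RM, 6 in HS and 7 in RM-HS, and none was at 0 in any library. Of 4 late proximal tubule markers, 2 rose (Slc5a1 and Slc5a8) and 2 fell (Slc7a13 and Slc22a7) in each injured group. Those 4 summed to 53000 to 90200 in RM, 46300 to 74600 in HS and 56800 to 62400 in RM-HS. In Sham they summed to 65400 to 109000. The counts of both lists stand beside 53%, 46.4% and 42.3% of all genes passing in RM, HS and RM-HS. The part of tissue composition in the Odc1 values was not tested.

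**Figure D2:**
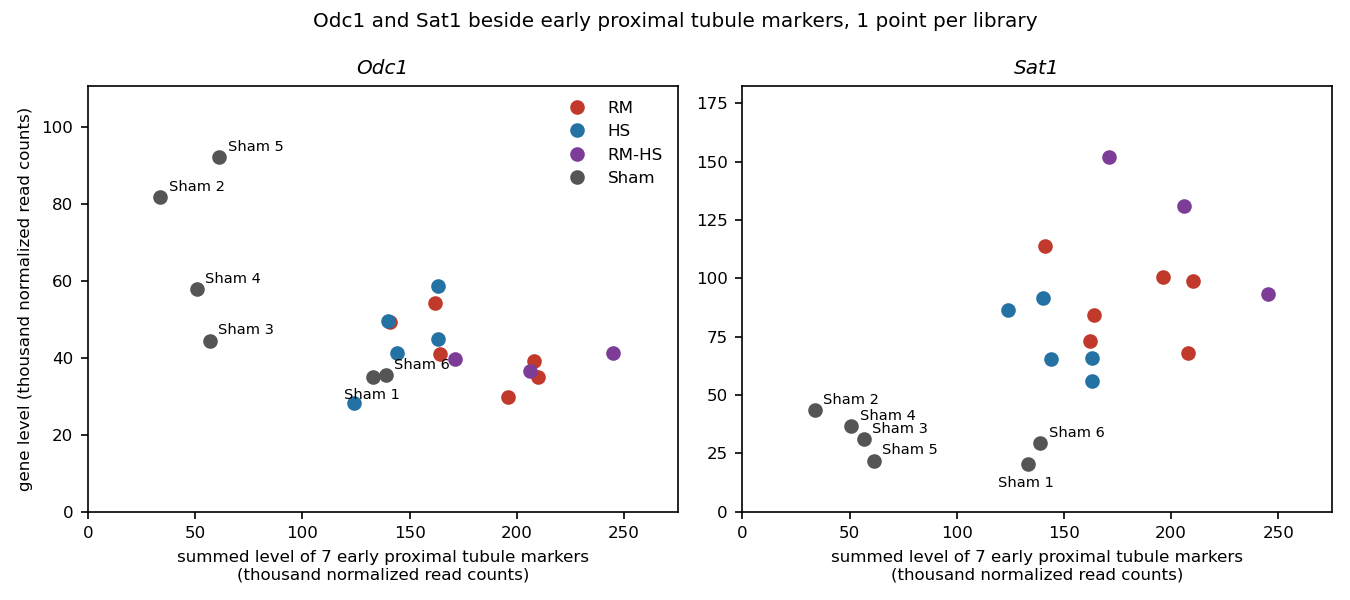
Levels of Odc1 and Sat1 in normalized read counts against the summed level of 7 early proximal tubule markers, 1 point per library coloured by group, with the Sham libraries named. Sham 2 to 5 lie at the left with 33700 to 61200 of these markers and hold the highest Odc1 value of 92300, while all Sham libraries lie below the rest for Sat1.

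Azin1, which frees ornithine decarboxylase from antizyme (GSRG0028862, chromosome 7, 77345646 to 77372398), rose in all 3 injured groups by similar amounts. It spanned 2990 to 4020 in RM (median 3560), stood at 3620, 3250, 2680, 3200 and 3480 in HS and at 3410, 3160 and 3690 in RM-HS, and spanned 1650 to 2730 in Sham (median 1940). RM and RM-HS did not overlap Sham, whereas HS 3 at 2680 lay just under Sham 4 at 2730. The log2 fold change was 0.81 ± 0.11 in RM, 0.69 ± 0.11 in HS and 0.77 ± 0.13 in RM-HS (limma adjusted p = 3.2e-06, 5.6e-05 and 0.00011). The order of the group means was RM, RM-HS, HS and Sham, and no neighbours among the injured groups passed (limma adjusted p = 0.91 for RM-HS against RM and 0.72 for RM-HS against HS). Against Sham 1 and Sham 6 alone the rises were 0.79, 0.67 and 0.75 in RM, HS and RM-HS (limma adjusted p = 0.00019, 0.0016 and 0.001). The rise in RM did not pass among libraries whose name starts with R (0.70, limma adjusted p = 0.0919), where RM 1 is the only RM library.

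Oaz1, the antizyme itself (GSRG0028426, chromosome 7, 11752122 to 11754587), was the gene that went in different directions. It spanned 37500 to 46500 in RM (median 41100), stood at 35000, 36000, 36200, 34200 and 33500 in HS and at 47200, 57200 and 52600 in RM-HS, and spanned 35400 to 45500 in Sham (median 42900). All RM-HS libraries lay above all others, and the HS libraries lay below all RM libraries and overlapped Sham only through Sham 1 at 35400. Against Sham, Oaz1 rose in RM-HS (0.33 ± 0.10, limma adjusted p = 0.01) and fell in HS (-0.25 ± 0.08, limma adjusted p = 0.019), and stood at 0.01 ± 0.08 in RM (limma adjusted p = 0.93). The fall in HS did not pass with Sham 1 and Sham 6 as the only controls (-0.16, limma adjusted p = 0.32), with the starting letter of library names as a covariate (-0.20, limma adjusted p = 0.0864) or among libraries named R (-0.22, limma adjusted p = 0.148). The rise in RM-HS did not pass without RM-HS 2 (0.26, limma adjusted p = 0.0667), under upper quartile scaling (0.19, limma adjusted p = 0.132) or in a fit of those groups only (0.33, limma adjusted p = 0.0515).

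Amd1, which supplies the aminopropyl donor (GSRG0037932, chromosome 20, 45384000 to 45399698), was highest in HS. It spanned 4570 to 6940 in RM (median 6430), stood at 6870, 7720, 6840, 7330 and 6610 in HS and at 5800, 6060 and 4350 in RM-HS, and spanned 4340 to 5800 in Sham (median 4890). Every HS library lay above every Sham and RM-HS library, while RM 1 at 4570 stood apart from the other RM libraries at 6110 or more. Amd1 rose by 0.49 ± 0.11 in HS and 0.30 ± 0.10 in RM on the log2 scale (limma adjusted p = 0.0011 and 0.022), and stood at 0.09 ± 0.13 in RM-HS (limma adjusted p = 0.59). Neither passed when Sham 1 and Sham 6 were the only controls, at 0.42 in HS (limma adjusted p = 0.052) and 0.22 in RM (limma adjusted p = 0.26). In RM it also did not pass without Sham 2 (0.25, limma adjusted p = 0.0546), without RM 4 (0.26, limma adjusted p = 0.0544), without RM 6 (0.27, limma adjusted p = 0.0525), under upper quartile scaling (0.15, limma adjusted p = 0.204) or with the name letter as covariate (0.14, limma adjusted p = 0.506), and among libraries named R the value was -0.14 (limma adjusted p = 0.743).

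Srm, which makes spermidine (GSRG0024483, chromosome 5, 165405122 to 165408325), rose in all 3 injured groups, by 2.01-fold in RM, 1.93-fold in RM-HS and 1.32-fold in HS. It spanned 2270 to 3190 in RM (median 3000), stood at 1800, 1950, 2640, 1760 and 1510 in HS and at 2420, 3610 and 2440 in RM-HS, and spanned 1120 to 1640 in Sham (median 1500). RM and RM-HS did not overlap Sham, and HS overlapped it through HS 5 at 1510. The log2 fold change was 1.01 ± 0.13 in RM, 0.40 ± 0.14 in HS and 0.95 ± 0.16 in RM-HS (limma adjusted p = 3.2e-06, 0.023 and 0.00012), and against Sham 1 and Sham 6 alone it was 1.20, 0.59 and 1.14 (limma adjusted p = 0.00024, 0.035 and 0.0013). The rise in HS was lost without HS 3 (0.28, limma adjusted p = 0.0842), without Sham 1 (0.33, limma adjusted p = 0.0541) or under upper quartile scaling (0.28, limma adjusted p = 0.106).

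Sms, the next enzyme, which adds the second aminopropyl group (GSRG0034018, chromosome X, 40363646 to 40415110), had near-equal means in all groups. It averaged 391 ± 35.5 in RM (SD, n = 6), 385 ± 68.8 in HS (SD, n = 5), 384 ± 38.7 in RM-HS (SD, n = 3) and 394 ± 58.8 in Sham (SD, n = 6). The libraries ran from 343 to 428 in RM, 292 to 454 in HS and 362 to 429 in RM-HS, and from 289 to 466 in Sham, so that all groups overlapped. Its log2 fold change was -0.00 ± 0.13 in RM, -0.04 ± 0.13 in HS and -0.03 ± 0.15 in RM-HS (limma adjusted p = 0.99, 0.83 and 0.9). Set against Sham 1 and Sham 6 alone these values were 0.22, 0.18 and 0.19, and none passed (limma adjusted p = 0.37, 0.51 and 0.51). The difference between the changes of Srm and Sms was not tested.

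Sat1, the acetyltransferase that marks polyamines for export or oxidation (GSRG0034024, chromosome X, 43619821 to 43629765), showed the clearest separation. It spanned 68000 to 114000 in RM (median 91400), stood at 55800, 65300, 86400, 91700 and 66000 in HS and at 131000, 152000 and 93100 in RM-HS, and spanned 20300 to 43600 in Sham (median 30100). No injured library reached down to the Sham range. The log2 fold change was 1.59 ± 0.19 in RM, 1.29 ± 0.20 in HS and 2.06 ± 0.23 in RM-HS (limma adjusted p = 1.1e-06, 3.5e-05 and 1.5e-06). Against Sham 1 and Sham 6 alone the rises were 1.85, 1.56 and 2.33 (limma adjusted p = 3.8e-05, 0.00048 and 2.2e-05). Among libraries named R, with RM 1 alone for RM, the rise in RM was 1.31 (limma adjusted p = 0.0661). The group means ran from RM-HS through RM and HS to Sham, and the neighbours RM-HS and RM, and RM and HS, did not pass against each other (limma adjusted p = 0.32 and 0.29). Of 7 leukocyte markers, 4 rose in RM, 4 rose and 1 fell in RM-HS, and 1 rose and 1 fell in HS. The fall in both cases was that of the macrophage receptor Csf1r. These counts stand beside 53%, 42.3% and 46.4% of all genes passing in RM, RM-HS and HS. The summed level of the 7 markers spanned 6520 to 21800 in RM, 3130 to 9180 in HS and 8910 to 13400 in RM-HS. In Sham it spanned 2550 to 6770. None of the 7 was at 0 in any library, and their part in the Sat1 values was not tested.

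Smox, the oxidase of spermine (GSRG0019755, chromosome 3, 124068865 to 124102240), passed in no comparison. It spanned 57.7 to 113.3 in RM (median 80.1), stood at 37.4, 63.5, 99.2, 66.6 and 65.6 in HS and at 82.8, 119 and 98.3 in RM-HS, and spanned 51.4 to 134 in Sham (median 68.8). All groups overlapped, and Sham 2 at 134 held the highest value of all libraries. Its log2 fold change was 0.16 ± 0.24 in RM, -0.21 ± 0.25 in HS and 0.42 ± 0.30 in RM-HS (limma adjusted p = 0.6, 0.54 and 0.26). Against Sham 1 and Sham 6 alone the values were 0.50, 0.14 and 0.77, with the other sign in HS, and none passed (limma adjusted p = 0.25, 0.79 and 0.13). Processed copies of Odc1, Amd1 and Oaz1 exist in rodent genomes, and how reads shared with them were counted is not given in the sources used here.

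**Figure D3:**
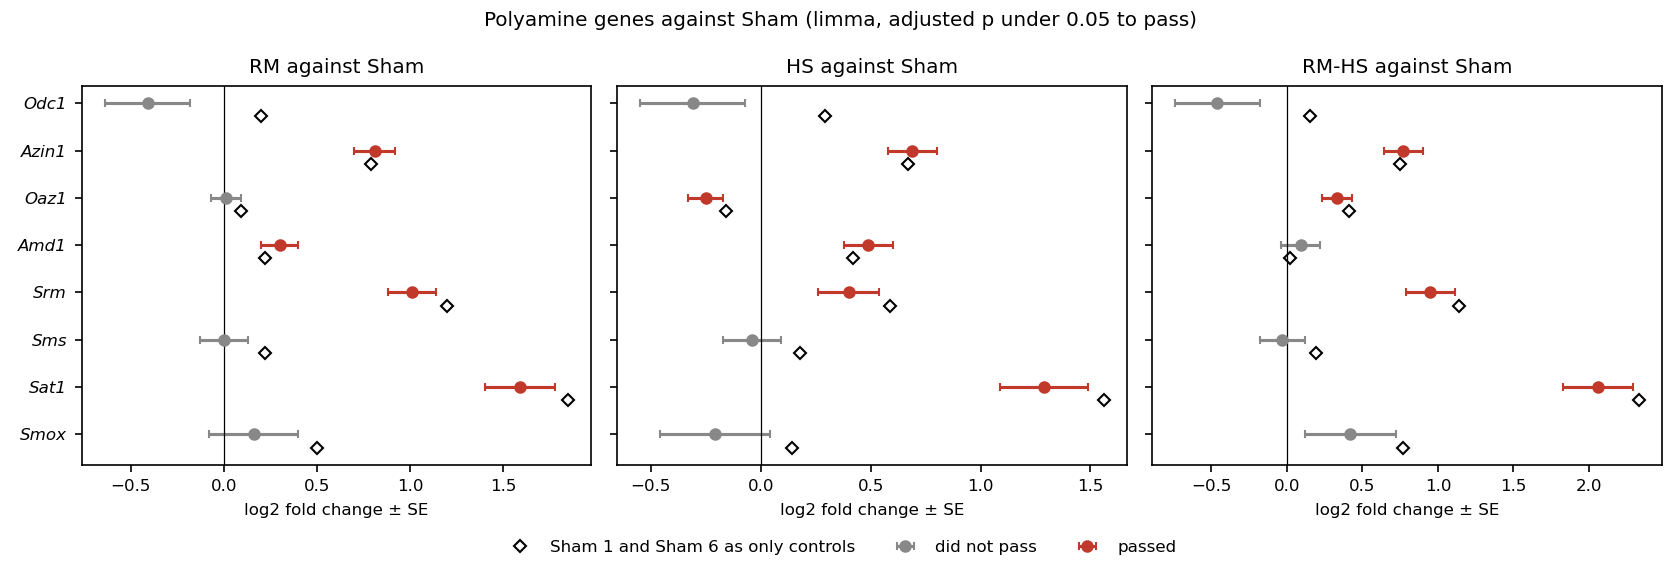
Log2 fold change ± SE of the 8 genes in RM, HS and RM-HS, each against Sham, with red points for an adjusted p under 0.05 and open diamonds for the same value with Sham 1 and Sham 6 as the only controls. Sat1 lies furthest to the right in every panel, at 1.59, 1.29 and 2.06, and Odc1 changes sign between the circles and the diamonds.

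The comparisons between injured groups asked what the combination added to each injury. In RM-HS against HS, 3 of the 8 genes rose and 1 fell, beside 20.6% of all tested genes passing, 10% higher and 10.6% lower. Oaz1 was higher by 0.58 ± 0.10 (limma adjusted p = 0.00068), Sat1 by 0.78 ± 0.24 (limma adjusted p = 0.026) and Srm by 0.55 ± 0.17 (limma adjusted p = 0.025), and Amd1 was lower by -0.40 ± 0.13 (limma adjusted p = 0.036). The groups did not overlap for Oaz1, Sat1 and Amd1, beside 24.9% of all genes whose groups did not overlap. The Oaz1 call held without each library in turn. For Sat1 the call was lost without HS 1 (0.68, limma adjusted p = 0.0572), HS 2 (0.74, 0.0529), HS 5 (0.75, 0.0511), RM-HS 1 (0.73, 0.0866) or RM-HS 2 (0.62, 0.124). The Sat1 call was also lost among libraries named R (0.85). For Srm it was lost without RM-HS 2 (0.36, limma adjusted p = 0.169), HS 4 (0.52, 0.0515) or HS 5 (0.46, 0.0604), in a fit of those groups only (0.55, 0.0782), with the name letter as covariate (0.46, 0.0797) or among libraries named R (0.40, 0.207). For Amd1 it was lost without RM-HS 3 (-0.25, limma adjusted p = 0.244), HS 2 (-0.37, 0.0766) or HS 4 (-0.39, 0.0675), with the name letter as covariate (-0.33, 0.114) or among libraries named R (-0.42, 0.0967).

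In RM-HS against RM, 0 of the 8 genes passed by limma, 0 by edgeR and 1, Oaz1, by DESeq2 (0.31, adjusted p = 0.0186), beside 1.08% of all genes passing by limma, 0.395% higher and 0.689% lower. At an unadjusted p under 0.05 the count by limma was 1, again Oaz1, beside 15.8% of all genes. Oaz1 was the 1 gene whose groups did not overlap, with 47200 or more in RM-HS and 46500 or less in RM (0.32 ± 0.10, limma adjusted p = 0.11), beside 7.76% of all genes. In RM against HS, 2 of the 8 genes rose, beside 23.8% of all genes passing, 11.1% higher and 12.6% lower. Oaz1 was also the 1 gene whose groups did not overlap there, beside 14.2% of all genes. Srm was higher by 0.61 ± 0.14 (limma adjusted p = 0.0032) and Oaz1 by 0.26 ± 0.08 (limma adjusted p = 0.029). Srm did not pass among libraries named R (0.45, limma adjusted p = 0.427). Oaz1 did not pass without RM 1 (0.23, limma adjusted p = 0.0588), RM 4 (0.23, 0.0719), HS 4 (0.25, 0.0614) or HS 5 (0.24, 0.0663), under upper quartile scaling (0.24, 0.0541) or among libraries named R (0.37, 0.326).

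The departure from additivity asked whether the log2 change in RM-HS differed from the sum of those in RM and HS. It passed for 4 of the 8 genes, 1 higher and 3 lower, beside 31.7% of all tested genes, 14.9% higher and 16.8% lower. For Azin1 the changes were 0.81 in RM and 0.69 in HS while RM-HS stood at 0.77, a departure of -0.73 ± 0.17 (limma adjusted p = 0.0031). For Amd1 the sum was 0.79 and RM-HS stood at 0.09, a departure of -0.70 ± 0.17 (limma adjusted p = 0.0039). For Sat1 the sum was 2.87 and RM-HS stood at 2.06, a departure of -0.81 ± 0.30 (limma adjusted p = 0.048). Oaz1 went the other way, with a sum of -0.24 and 0.33 in RM-HS, a departure of 0.57 ± 0.13 (limma adjusted p = 0.0023). None of these 4 passed with the name letter as covariate, at -0.60, -0.46, -0.50 and 0.42 for Azin1, Amd1, Sat1 and Oaz1 (limma adjusted p = 0.143, 0.235, 0.515 and 0.162). Nor did they among libraries named R, at -0.58, -0.28, -0.46 and 0.39 (limma adjusted p = 0.393, 0.641, 0.709 and 0.452). The letter goes with the groups, as R begins the names of 1 of 6 RM, 3 of 5 HS and every RM-HS and Sham library, and S the rest; no source says what it stands for. The Sat1 call held without 6 of the 20 libraries and did not pass without each of RM 2, 3, 4 and 6, HS 2, 3, 4 and 5, RM-HS 1 and 3, and Sham 1, 3, 5 and 6 (-0.86 to -0.61, limma adjusted p = 0.054 to 0.173), nor without the filter (-0.81, 0.0657) or under upper quartile scaling (-0.68, 0.0894). Srm stood at -0.46 ± 0.21 (limma adjusted p = 0.11) and passed without RM-HS 2 (-0.65, limma adjusted p = 0.0282).

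**Figure D4:**
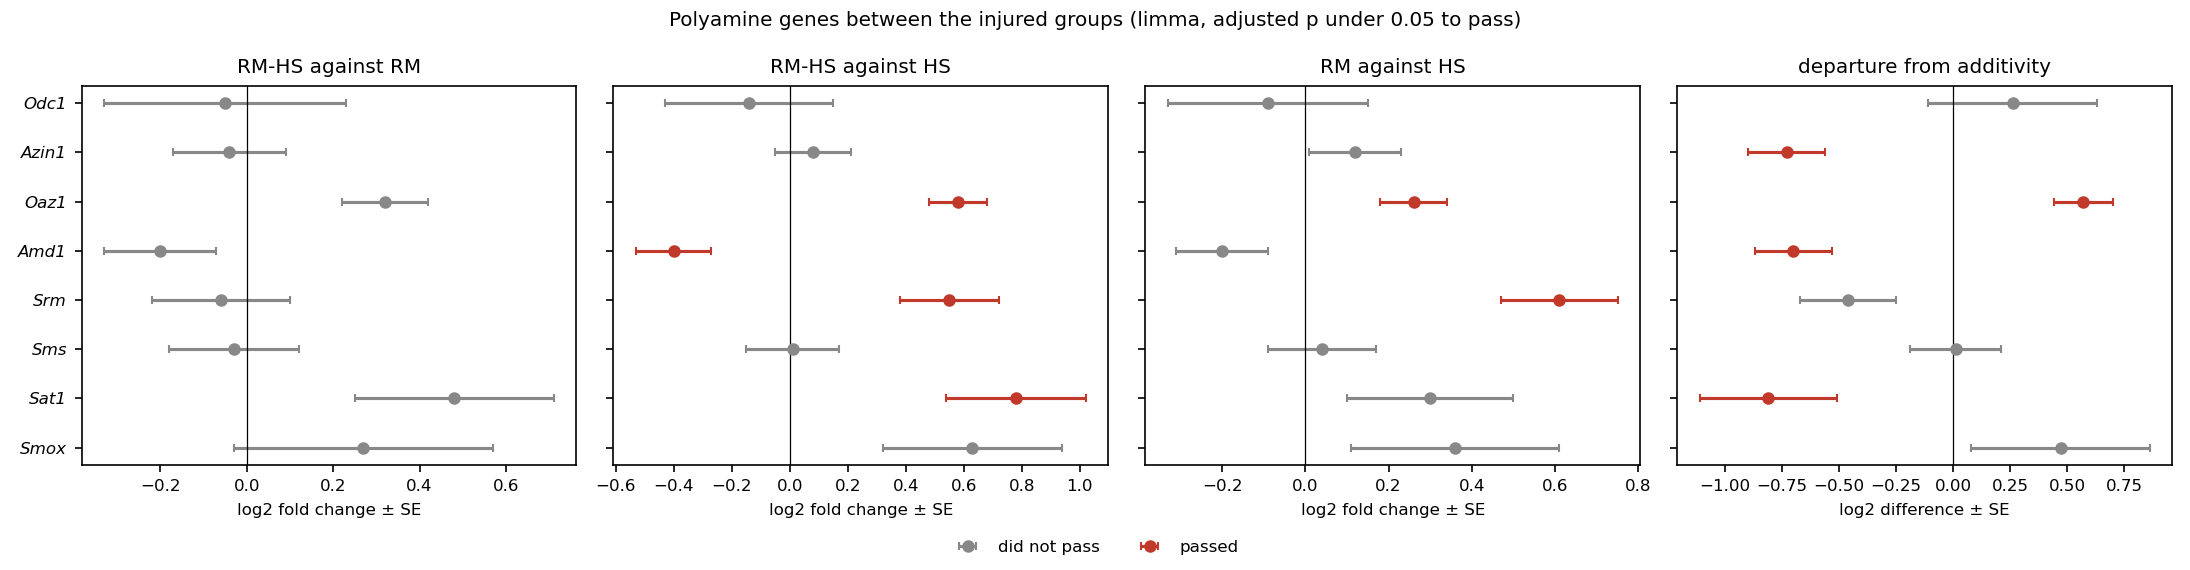
Log2 fold change ± SE of the 8 genes for RM-HS set against RM or against HS and for RM against HS, and their departure from additivity, with red points for an adjusted p under 0.05. No gene passed in RM-HS against RM, and Azin1, Amd1 and Sat1 lie left of 0 in the last panel while Oaz1 lies right of it.

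The genes whose log2 levels followed each member most closely over the 20 libraries are given as a description, with Pearson's r and no test, since libraries of a group share their condition. Sat1 was followed most closely by Nip7, a ribosome biogenesis factor, Pvr, a cell adhesion molecule, and Emp1, an epithelial membrane protein (r = 0.97, 0.97 and 0.96). Srm was followed by Sbno2, Btg2, an anti-proliferation factor, and the serine protease Prss22 (r = 0.96, 0.95 and 0.95), and Azin1 by Golph3 of the Golgi, Btaf1, which acts on the TATA-binding protein, and the pseudokinase Scyl2 (r = 0.94 each). Amd1 was followed by Mios, Lsm11 and the nucleoporin Pom121 (r = 0.93, 0.89 and 0.88), and Oaz1 by the respiratory chain subunits Cox4i1 and Ndufb11 and by Vps28 of the endosomal sorting complex (r = 0.93, 0.90 and 0.90). Odc1 was followed by Tgfbi, Rpap3 and the acetyltransferase Kat8 (r = 0.83, 0.81 and 0.79), Sms by Pcgf1, Mrpl19 and Atrip (r = 0.72, 0.71 and 0.66), and Smox by Fes and the haemoglobin genes Hba-a2 and Hba-a1 (r = 0.82, 0.81 and 0.80). Among the members themselves the closest pair was Srm and Sat1 (r = 0.86), then Azin1 and Sat1 (r = 0.79), while Odc1 stood at -0.40 with Sat1 and at 0.02 with Oaz1.

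Of 34 other genes of the pathway, 29 were tested, of which 10 rose and 8 fell in RM, 6 rose and 12 fell in HS, and 8 rose and 6 fell in RM-HS. This count and those of the lists within it stand beside 53%, 46.4% and 42.3% of all tested genes passing in RM, HS and RM-HS, and nothing particular to a list is read from them. Mat2a, the methionine adenosyltransferase of most tissues outside the liver, makes the S-adenosylmethionine that Amd1 uses, and it fell in all 3 groups. Mat2a spanned 8830 to 19100 in RM (median 10800), stood at 13500, 9730, 9150, 11700 and 12700 in HS and at 14300, 9610 and 11000 in RM-HS, and spanned 22100 to 54100 in Sham (median 36500). Every injured library lay below every Sham library, and the log2 fold change was -1.53 ± 0.20 in RM, -1.59 ± 0.21 in HS and -1.55 ± 0.25 in RM-HS (limma adjusted p = 4e-06, 9.6e-06 and 6.5e-05). Against Sham 1 and Sham 6 alone, at 22100 and 23600, the change was smaller, -0.97, -1.03 and -0.99 (limma adjusted p = 0.0045, 0.0056 and 0.0098). In its list of S-adenosylmethionine supply and methionine salvage genes, of which 7 of 8 were tested, 1 rose and 3 fell in RM, 1 rose and 4 fell in HS, and 2 fell in RM-HS. Mri1 and Adi1 belong to the salvage that recovers methionine from the by-product of spermidine and spermine synthesis. Mri1 fell in all 3 groups, at -0.75 ± 0.14 in RM, -0.62 ± 0.15 in HS and -0.98 ± 0.17 in RM-HS (limma adjusted p = 0.00017, 0.0019 and 0.00015), and Adi1 in 2 of them, at -0.43 ± 0.10 in RM and -0.68 ± 0.10 in HS (limma adjusted p = 0.0012 and 3.8e-05).

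Genes that supply or use ornithine had 1 rise and 4 falls of 6 in RM, 1 rise and 3 falls in HS, and 1 rise and 1 fall in RM-HS, beside 53%, 46.4% and 42.3% of all genes passing. The rise in each was Gatm, which releases ornithine while making a creatine precursor. Oat, the mitochondrial enzyme that turns ornithine towards glutamate, averaged 39200 ± 9130 in RM, 35000 ± 4670 in HS and 40300 ± 7390 in RM-HS, against 66200 ± 9750 in Sham (SD, n = 6, 5, 3 and 6). No injured library reached the lowest Sham value of 59400, and Oat fell by -0.78 ± 0.14 in RM, -0.92 ± 0.15 in HS and -0.72 ± 0.17 in RM-HS (limma adjusted p = 0.00012, 5.4e-05 and 0.0023). The fall in RM-HS did not pass with Sham 1 and Sham 6 as the only controls (-0.60, limma adjusted p = 0.055). Arg2, a mitochondrial arginase that makes ornithine, fell in RM (-0.98 ± 0.19, limma adjusted p = 0.00025) and HS (-0.63 ± 0.20, limma adjusted p = 0.013), but with those controls it stood at -0.44 and -0.09 and did not pass (limma adjusted p = 0.15 and 0.8). Agmat, annotated as an agmatinase, fell in RM (-0.51 ± 0.13, limma adjusted p = 0.003) and HS (-0.78 ± 0.14, limma adjusted p = 0.00013), and with those controls only in HS (-0.47, limma adjusted p = 0.011). In RM it then stood at -0.19 (limma adjusted p = 0.23).

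Polyamine transport genes had 5 rises and 1 fall of 8 tested in RM, 4 and 3 in HS, and 4 and 1 in RM-HS, beside the same 53%, 46.4% and 42.3% of all genes. Slc3a2, a subunit of amino acid exchangers that is also linked to polyamine export, spanned 14700 to 25100 in RM (median 23400), stood at 14300, 12600, 13600, 13000 and 13100 in HS and at 21000, 21700 and 20100 in RM-HS, and spanned 3930 to 11800 in Sham (median 5300). No injured library overlapped Sham, and it rose by 1.81 ± 0.22 in RM, 1.10 ± 0.23 in HS and 1.76 ± 0.26 in RM-HS (limma adjusted p = 1.1e-06, 0.00053 and 3.4e-05). With Sham 1 and Sham 6 as the only controls the values were 0.98, 0.27 and 0.93, and that of HS did not pass (limma adjusted p = 0.00021, 0.21 and 0.0012). Atp13a3, a transporter of the family that carries polyamines into the cell, rose in RM (1.18 ± 0.21, limma adjusted p = 0.00012) and HS (1.29 ± 0.22, limma adjusted p = 0.00011) but did not pass in RM-HS (0.63 ± 0.26, limma adjusted p = 0.06). With those controls the rise passed in HS (0.67, limma adjusted p = 0.035) and not in RM (0.55, limma adjusted p = 0.059).

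Among the genes of hypusination, the spermidine-dependent modification of the translation factor eIF5A, 2 of 4 rose in RM, 1 fell in HS, and 2 rose and 2 fell in RM-HS. Eif5a rose in RM (0.32 ± 0.09, limma adjusted p = 0.0051) and RM-HS (0.40 ± 0.11, limma adjusted p = 0.0062), as did Dohh, which completes the modification (0.24 ± 0.09 and 0.34 ± 0.11, limma adjusted p = 0.028 and 0.016). Dhps, which starts it from spermidine, fell in HS (-0.53 ± 0.10, limma adjusted p = 0.00024) and RM-HS (-0.34 ± 0.12, limma adjusted p = 0.025). Against those controls alone, the fall of Dhps in HS was the 1 of these calls that passed (-0.56, limma adjusted p = 0.0076). In the antizyme family Azin2, the second antizyme inhibitor, rose in RM (0.92 ± 0.24, limma adjusted p = 0.0028) and RM-HS (1.49 ± 0.29, limma adjusted p = 0.00042), and with those controls in RM-HS (1.43, limma adjusted p = 0.011) but not in RM (0.86, limma adjusted p = 0.064). Oaz2 fell in HS (-0.27 ± 0.08, limma adjusted p = 0.0095), which did not pass with those controls (-0.14, limma adjusted p = 0.35). The acetyltransferase relative Sat2 and the diamine oxidase Aoc1 passed in none of the 3 comparisons with Sham.

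**Figure D5:**
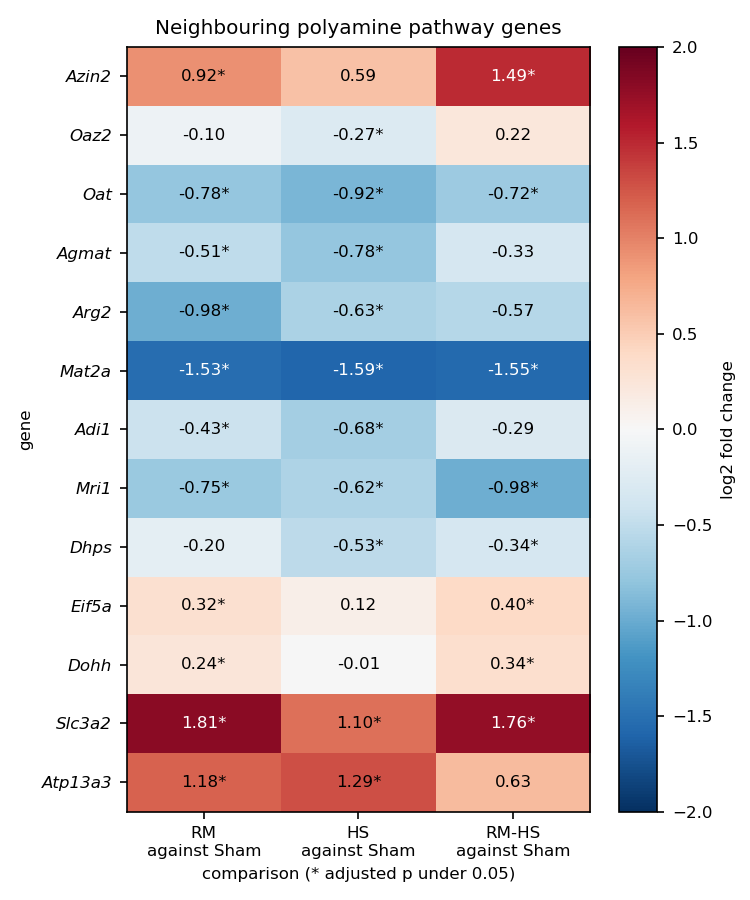
Log2 fold change of 13 other genes of the polyamine pathway (rows) in RM, HS and RM-HS, each against Sham (columns), with an asterisk for an adjusted p under 0.05. Mat2a is lowest in each column, at -1.53, -1.59 and -1.55, and Slc3a2 stands at 1.81, 1.10 and 1.76.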

How the data were processed

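The submitters' processing notes name FastQC 0.11.2, Picard 1.119, SAMtools 1.0, the aligner STAR, featureCounts of Subread 1.5.0, DESeq2 and the rn6 build, with no role or order. The signal values that the authors deposited are DESeq2-normalized read counts per gene, and by their steps each is a read count divided by 1 factor per library. Settings are not stated in the sources used here. Dividing by each library's step gave back reads, 100% of values lying no more than 0.1 read from a whole count.

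Groups came from the labels, and replicate numbers follow listing order. The 15954 rows reaching 10 in 3 or more libraries were fitted on log2(value + 1) by limma 3.58.1 (R 4.3.3) with its mean-variance trend, and Benjamini-Hochberg adjustment ran over all of them. The procedure was tested on simulated data, in which far fewer genes changed than passed against Sham here. Those data held no split within Sham and no effect of the name letter, so the test does not cover these. Fold changes on that scale understate those of low genes. Alternatives were other pseudocounts, filters and scalings, subsets of libraries, array weights, the name letter as covariate, and count models on those reads, by edgeR 4.0.16 and DESeq2 1.42.0.

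The members and lists were chosen with earlier results of these data known. All 8 members are described, and up to 3 other genes per list that passed against Sham, by smallest adjusted p, with list counts covering the rest; 1 gene that this rule names is not reported here. Likeness took the 3 genes with the highest Pearson correlation among those with a mean of at least 50. Paox, Mtap, Slc18b1, Oaz3 and Satl1 were not tested.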

Additional observations from a re-analysis of the deposited data

Results flagged for a closer look

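A test for a single library far from the rest of its group was made for 22 genes in RM, HS and Sham, which makes 66 groups. RM-HS, with 3 libraries, was not tested. Chance flags about 1 in 20 groups, and 6 held such a library. Amd1 in RM 1 stood at 4570, with the other RM libraries at 6110 to 6940. Srm in RM 5 stood at 2270, with the others at 2870 to 3190. Smox in Sham 2 stood at 134, with the other Sham libraries at 51.4 to 74.1. Azin2 in HS 3 stood at 207, with the others at 99.3 to 121. Oat in Sham 5 stood at 85700, with the others at 59400 to 65000. Dhps in RM 3 stood at 710, with the others at 875 to 966.

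The effect of HS differed between kidneys with and without RM, by the departure from additivity in limma, in 12 of these 22 genes, beside 31.7% of all 15954 tested genes. Of the 22, 14 were named for a small adjusted p against Sham, and the Sham values enter the departure too, so their count is no independent evidence. With the name letter as covariate the departure passed for 617 of all genes and 0 of the 8 polyamine genes, and among libraries named R for 0 of all genes. Among the 8 polyamine genes the departures were -0.70 for Amd1, -0.73 for Azin1, 0.57 for Oaz1 and -0.81 for Sat1. Among the neighbouring genes they were 0.58 for Oaz2 (limma adjusted p = 0.0015), 0.97 for Oat (0.003), 0.96 for Agmat (0.002), 1.05 for Arg2 (0.014), 1.56 for Mat2a (0.0014), 0.82 for Adi1 (0.00088), -1.16 for Slc3a2 (0.015) and -1.85 for Atp13a3 (0.00059). With Sham 1 and Sham 6 as the only controls, Arg2 (0.50, limma adjusted p = 0.26) and Slc3a2 (-0.33, limma adjusted p = 0.28) did not pass.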

How the results depend on the processing

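No paired analysis was possible because the labels give no replicate numbers that groups share. Over the alternatives, 1769 of 1840 log2 fold changes of the 8 genes kept their side of the threshold, 66 lost it, 4 gained it, and Amd1 in RM against Sham reversed to -0.14 among libraries named R, the cause of which was not tested. Sat1 against Sham passed throughout except in RM among libraries named R. Under upper quartile scaling the all-gene median shifted, on the log2 scale, by -0.14 in RM, -0.12 in HS and -0.13 in RM-HS against Sham, and by 0.13 in the departure from additivity.

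Counts of the 8 genes moved as follows. With Sham 1 and Sham 6 as the only controls 3 passed in HS against Sham, in place of 5. With the name letter as covariate 2 passed in RM-HS against HS, in place of 4, and 0 in the departure from additivity, in place of 4. Among libraries named R 1 passed in RM against Sham, in place of 4, 1 in RM-HS against HS, 0 in RM against HS, in place of 2, and 0 in the departure. Under upper quartile scaling 1 passed in RM against HS. By DESeq2 1 passed in RM-HS against RM, in place of 0. Leaving out 1 library gave 2 to 4 in RM-HS against HS and 1 to 2 in RM against HS.

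Counts of all genes moved too. With Sham 1 and Sham 6 alone they were 5250 in RM (8455 in the fit of all libraries), 4105 in HS (7410) and 4347 in RM-HS (6749) against Sham, and 3151 in the departure (5054). With the name letter they were 4551 in RM against Sham, 0 in RM-HS against RM (173) and 617 in the departure. Among libraries named R they were 766 in RM against Sham, 0 in RM-HS against RM, 1203 in RM-HS against HS (3287), 195 in RM against HS (3791) and 0 in the departure, where fewer samples enter the fit and RM is 1 library assumed to vary like the other groups. In RM-HS against RM they were 42 in a fit of those groups only, 333 with array weights and 499 by DESeq2. Leaving out 1 library gave 21 to 480 in RM-HS against RM and 2015 to 3547 in RM-HS against HS. Why the other counts moved was not tested.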
